A study of Mus musculus with 4 samples.

Results

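The genes described here make, carry, sense and break down prostaglandins and leukotrienes in mouse caecum. The list held 10 genes, Ptgs1, Ptgs2, Ptges, Hpgd, Hpgds, Slco2a1, Alox5, Alox5ap, Alox15 and Ptger4. They were chosen by name for their place in eicosanoid synthesis, transport and breakdown. A probe set naming that gene alone was found for 9 of the 10, in 11 probe sets, among 22180 genes and 23521 such probe sets on the array. Ptgs1, the constitutive cyclooxygenase, had no such probe set here and is not analysed.

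Expression was measured on Affymetrix arrays in caecal tissue of C57Bl/6 mice aged 21 weeks, all on a diet from which n-3 polyunsaturated fatty acids (n-3 PUFA) had been depleted. The 4 groups were wild-type (WT) mice without prebiotics, WT mice with prebiotics, mice lacking apolipoprotein E (apoE KO) without prebiotics and apoE KO mice with prebiotics. The prebiotic was Orafti®P95, at 250 mg per mouse each day over the last 15 days. Each group was 1 array of RNA pooled from 6 mice picked on RNA quality, so no group has a replicate of its own and differences among mice are not measured. The labels of the WT arrays conflict. Title, source name and treatment give one diet and the description gives the other. The WT arrays are called here by their titles, and the fitted prebiotic differences, the calls and the 2-fold counts were also computed with the pair exchanged.

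Eicosanoids are signalling lipids made on demand from arachidonic acid, which phospholipases cut from membranes. Cyclooxygenases turn it into prostaglandin H2, from which terminal synthases make prostaglandin E2, D2 and others, while 5-lipoxygenase with its activating protein starts the leukotrienes. In the gut wall prostaglandin E2 acts through G protein-coupled receptors on epithelium, muscle and immune cells, and its signal ends when a carrier takes it into cells, where 15-hydroxyprostaglandin dehydrogenase oxidises it. A diet without n-3 PUFA leaves n-6 fatty acids such as arachidonic acid as the main substrates of these enzymes.

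The prostaglandin carrier Slco2a1 had the largest prebiotic difference among the members. It was higher on the array titled with prebiotics in each genotype. It was also the only member called over both genotypes when the WT arrays were grouped by title. The call was lost with the WT arrays exchanged, and without the trend of variance on level (limma adjusted p = 0.14). The dehydrogenase Hpgd, which acts on the prostaglandin that the carrier brings in, was well above background on all arrays and differed little. The values of the synthesis, receptor and lipoxygenase members lay closer to the median of the single-gene probe sets. Probes differ in brightness, so such values do not give the amount of RNA. The differences of those that were tested did not pass. Outside the 10 genes, the prostaglandin exporter Abcc4 and the carbonyl reductase Cbr3 were lower on both arrays titled with prebiotics. The genotype comparison called 0 members and 0% of all genes tested, and Apoe itself was not called.

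The sequence just before the transcription start is shown for 3 members. Slco2a1 is the gene that was called, Hpgd is the enzyme that follows it in the same route, and Ptgs2 is the inducible cyclooxygenase whose values ran the other way. RefSeq promoter entries (assembly GRCm38.p6) were found for 8 of the 10 genes. Each line gives the 250 bases before the start on the + strand, 5′ to 3′, with matches to the searched motifs in capitals.
Slco2a1, chr9:103008237-103008486: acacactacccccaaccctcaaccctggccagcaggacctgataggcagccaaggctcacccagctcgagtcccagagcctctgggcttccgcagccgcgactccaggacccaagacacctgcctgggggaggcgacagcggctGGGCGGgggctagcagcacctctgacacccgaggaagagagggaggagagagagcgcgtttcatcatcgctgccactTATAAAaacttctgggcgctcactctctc
Hpgd, chr8:56294302-56294551: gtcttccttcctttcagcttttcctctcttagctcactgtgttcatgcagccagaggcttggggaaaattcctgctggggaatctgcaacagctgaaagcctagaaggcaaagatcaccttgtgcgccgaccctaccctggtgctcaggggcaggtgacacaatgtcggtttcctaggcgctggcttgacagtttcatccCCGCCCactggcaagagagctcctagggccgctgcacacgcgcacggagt
Ptgs2, chr1:150099781-150100030: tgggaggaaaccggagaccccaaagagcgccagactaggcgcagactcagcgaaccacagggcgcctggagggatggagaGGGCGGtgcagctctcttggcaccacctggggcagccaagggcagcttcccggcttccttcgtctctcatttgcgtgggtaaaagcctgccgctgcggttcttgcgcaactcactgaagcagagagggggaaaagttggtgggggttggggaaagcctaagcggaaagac

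The motifs searched, on both strands, were the TATA box TATAAA, the E-box CACGTG, the core CGTCA of the cAMP response element, the CCAAT box and the GC box GGGCGG. No capitalised matches overlap. The Slco2a1 window held a TATA box 29 bases before the start and a GC box beginning 106 bases before it. Windows of Hpgd and Ptgs2 held a GC box only, beginning 50 and 170 bases before the start, on the opposite strand for Hpgd. Of 32851 windows of this length in the table, 12.4% held TATAAA, 6.02% CACGTG, 17.8% CGTCA, 33.8% CCAAT and 32.7% GGGCGG. The GC box shared by the 3 windows is therefore a common feature, and the TATA box of Slco2a1 is the less common one. The matches describe these letters only, before the listed start of each gene. Bases past that start were not searched, so a motif absent here may lie outside the window.

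Values are on the log2 scale of the robust multi-array average (RMA), so a difference of 1 is 2-fold. A level near 3 lies at the middle of the named probe sets, most of which carry little signal. The median of the single-gene probe sets was 2.99 to 3.01 on the 4 arrays. A gene was tested if it reached this median on at least 1 array, which 8 of the 9 measured members did. Of these, 5 reached it on all 4 arrays (Ptgs2, Hpgd, Slco2a1, Alox5ap and Ptger4) and 3 on 3 arrays (Ptges, Hpgds and Alox5). Alox15 reached it on none and was not tested. Levels of different genes are not compared, since probes differ in brightness. Apoe, the gene knocked out, had 3.90 and 4.09 on the WT arrays and 2.83 and 3.13 on the apoE KO arrays, a genotype difference of -1.02 (SE 0.16, limma adjusted p = 0.78). Apoe was thus lower on both apoE KO arrays but was not called. Arrays correlated across probe sets with Pearson's r of 0.984 to 0.988. The 10 general epithelial markers, Epcam and Krt8 among them, were above the median on every array, with a list mean of 9.14 to 9.22, and 0 of 10 were called for prebiotics.

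**Figure D1:**
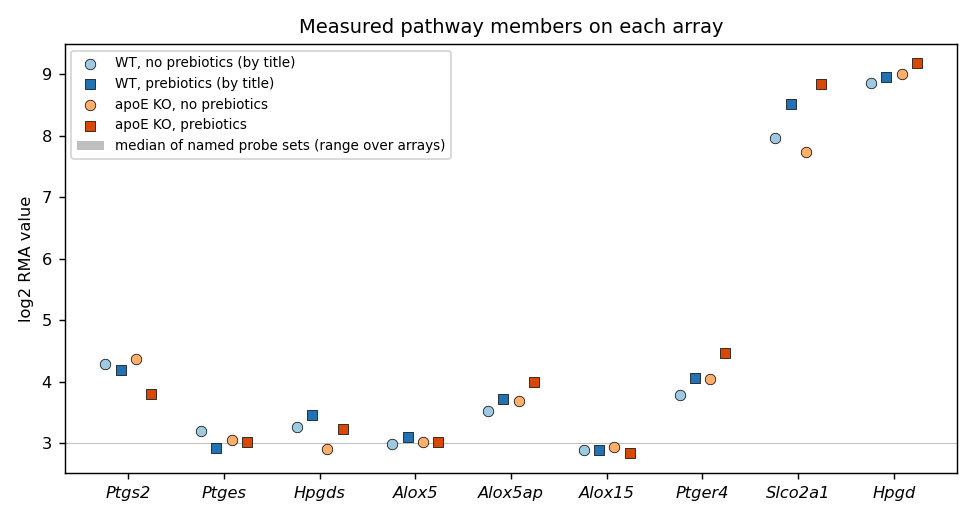
Log2 RMA value (vertical axis) of the 9 measured members, with 1 point for each of the 4 arrays and a grey line at the median of the named probe sets. Slco2a1 and Hpgd lie between 7.73 and 9.18, and Ptgs2 and Ptger4 lie between 3.79 and 4.47, above the grey line on every array. Alox15 stays under the line on all 4 arrays.

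Slco2a1 encodes the prostaglandin transporter, a membrane carrier that takes prostaglandin E2 and related prostanoids into cells. Its log2 values were 7.97 on the WT array without prebiotics, 8.51 on the WT array with prebiotics, 7.73 on the apoE KO array without and 8.85 on the apoE KO array with prebiotics. Both arrays titled with prebiotics lay above both arrays without. The difference was 1.12 in the apoE KO pair, a 2.17-fold higher value, and 0.55 in the WT pair, 1.46-fold. Over both genotypes, in a limma fit whose only residual is the difference between the pairs and which borrows spread across genes, the fitted difference was 0.83 (SE 0.13, limma adjusted p = 0.019), a 1.78-fold rise. Only 0.535% of the 13083 genes tested had a difference at least as large in size.

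The call on Slco2a1 rests on the titles of the WT arrays and on the variance model. With the WT pair exchanged, the fitted difference was 0.29 (limma adjusted p = 1). Without the trend of variance on level it kept its size but was not called (limma adjusted p = 0.14). The apoE KO pair, whose labels do not conflict, does not depend on the exchange, but it is 1 array against 1 array and has no test. Of the members tested in limma, 1 of 8 was called higher and 0 lower, while 0.994% of all genes tested were called higher and 0.26% lower. In the apoE KO pair 1 of 8 members was at least 2-fold higher and 0 lower, against 0.475% and 0.139% of all genes. In the WT pair the count was 0 of 8 either way, against 0.335% and 0.18%. At an unadjusted p under 0.05 limma had 2 of 8 members, Slco2a1 and Ptger4.

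Markers of mature colonocytes, the absorptive cells at the surface of the caecal epithelium, were higher on the same arrays as Slco2a1. All 10 were higher in each pair, where 34.1% of all genes tested were higher in both. Called were 6 of the 10 (Muc3, Guca2a, Slc26a3, Slc9a3, Car4 and Ceacam20), beside 0.994% of all genes called higher. The list mean went from 9.97 to 10.33 in the WT pair and from 9.95 to 10.39 in the apoE KO pair. The chloride exchanger Slc26a3 rose by 0.58 (SE 0.05, limma adjusted p = 0.00081), and the carbonic anhydrase Car4 rose by 0.59 (SE 0.10, limma adjusted p = 0.023). The Slco2a1 value minus that list mean was -2.003 and -1.82 on the WT arrays without and with prebiotics and -2.22 and -1.54 on the apoE KO arrays. Endothelium is another known site of Slco2a1, and 3 of its 10 markers were higher with prebiotics in the WT pair and 1 of 10 in the apoE KO pair, with 0 called. For a single pair the share of all genes that were higher was not counted. The endothelial markers had a list mean of 4.57 and 4.51 on the WT arrays without and with prebiotics, and of 4.78 and 4.53 on the apoE KO arrays. The part of these cell types in the Slco2a1 values was not tested, and in whole tissue more cells of a type and more RNA per cell cannot be told apart.

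**Figure D2:**
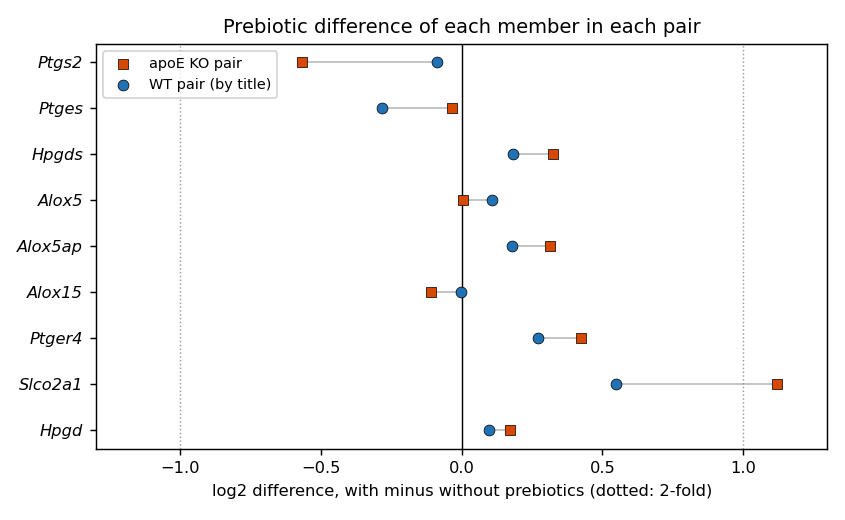
Log2 difference (horizontal axis), with minus without prebiotics, of the 9 measured members in the apoE KO pair (squares) and the WT pair by title (circles), with dotted lines at 2-fold. Slco2a1 in the apoE KO pair, at 1.12, is the only point beyond a dotted line.

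Hpgd encodes 15-hydroxyprostaglandin dehydrogenase, the enzyme that inactivates prostaglandin E2 inside the cell. Its log2 values were 8.87 and 8.96 on the WT arrays without and with prebiotics and 9.01 and 9.18 on the corresponding apoE KO arrays. The 4 values span a narrow range, and the prebiotic arrays did not separate from the others. The prebiotic difference was 0.14 (SE 0.08, limma adjusted p = 0.50). Both apoE KO arrays lay above both WT arrays, with a genotype difference of 0.18 (SE 0.12, limma adjusted p = 0.9994).

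Ptgs2 encodes the inducible cyclooxygenase, which makes prostaglandin H2 in inflamed or stimulated cells. Its log2 values without and with prebiotics were 4.29 and 4.20 in WT and 4.37 and 3.81 in apoE KO. The apoE KO prebiotic array was the lowest, and the other 3 lay close together, with both prebiotic arrays below both others. The difference was -0.57 in the apoE KO pair and -0.09 in the WT pair, with a fitted value of -0.33 (SE 0.16, limma adjusted p = 0.40).

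Ptges, the inducible prostaglandin E synthase, had 3.21 and 2.92 on the WT arrays and 3.06 and 3.02 on the apoE KO arrays, around the array median. Hpgds, the haematopoietic prostaglandin D synthase, had 3.27 and 3.45 on the WT arrays and 2.91 and 3.24 on the apoE KO arrays. For Hpgds both apoE KO arrays lay below both WT arrays, by a mean of -0.29 (SE 0.16, limma adjusted p = 0.9994). Its prebiotic difference was 0.25 (SE 0.13, limma adjusted p = 0.46), and that of Ptges was -0.16 (SE 0.14, limma adjusted p = 0.68).

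Ptger4 encodes EP4, a receptor for prostaglandin E2 that raises cyclic AMP. Its log2 values were 3.79 and 4.06 on the WT arrays without and with prebiotics and 4.05 and 4.47 on the apoE KO arrays. The apoE KO prebiotic array was the highest, and both prebiotic arrays lay above both others though the WT prebiotic array exceeded the apoE KO array without prebiotics barely, at 4.06 against 4.05. The fitted prebiotic difference was 0.35 (SE 0.14, limma unadjusted p = 0.032, adjusted p = 0.30), so it did not pass. The genotype difference was 0.34 (SE 0.19, limma adjusted p = 0.9994).

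On the lipoxygenase side, Alox5ap encodes FLAP, the membrane protein that hands arachidonic acid to 5-lipoxygenase. Its brighter probe set had 3.53 and 3.71 on the WT arrays without and with prebiotics and 3.69 and 4.004 on the apoE KO arrays. Both prebiotic arrays lay above both others, with a fitted difference of 0.25 (SE 0.14, limma adjusted p = 0.48). Its other probe set stayed between 2.69 and 2.91, below the median on all arrays, and differed by -0.02 in the apoE KO pair and -0.21 in the WT pair. The probe sets of Alox5ap thus disagree in direction, and their mean gave 0.06.

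Alox5, the 5-lipoxygenase itself, had 2.99 and 3.10 on the WT arrays and 3.02 and 3.02 on the apoE KO arrays by its brighter probe set, and 2.84 to 2.92 by the other. Alox15, the 12/15-lipoxygenase, had 2.90 and 2.89 on the WT arrays and 2.95 and 2.84 on the apoE KO arrays. Both genes lay near the array median or below it, so no direction is drawn from them. The 5 other lipoxygenases listed (Alox12, Alox12b, Alox12e, Alox8 and Aloxe3) were below the median on every array.

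With the brightest probe sets, each of the 8 tested members had the same sign in both pairs, which share no array. Of all genes tested, 59.2% did. The sign of Alox5 rests on 0.0046 in the apoE KO pair and turned under cyclic loess to -0.024, against 0.087 in WT. Averaged over probe sets, Alox5ap was 0.15 in apoE KO and -0.017 in WT, and Alox5 was -0.0002 and 0.012, so both differed in sign. Counted as above 0 in both pairs were 6 members (Slco2a1, Hpgd, Hpgds, Alox5, Alox5ap and Ptger4), against 34.1% of all genes, and as below 0 in both 2 (Ptgs2 and Ptges), against 25.1%. The size was larger in the apoE KO pair for 6 of the 8. That share was not counted over all genes, so no trait of the members is drawn from it. Both prebiotic arrays lay above both others for 4 members, against 25.5% of genes, and below for 2, against 17.4%. The members' median difference was 0.19 in the limma fit, 0.24 in the apoE KO pair and 0.14 in the WT pair, beside 0.02, 0.04 and 0.02 over all genes. Exchanging the WT arrays turns the sign of each WT difference, so these same-sign counts also rest on the titles.

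For genotype, limma called 0 of 8 members and 0% of all genes. At an unadjusted p under 0.05 it had 0 of the 8 members and 430 of 13083 genes. The members' differences ranged from -0.29 for Hpgds to 0.34 for Ptger4, with unadjusted limma p-values of 0.11 to 0.88. Both apoE KO arrays lay above both WT arrays for 1 member, Hpgd, and below for 1, Hpgds, where 16.2% and 14% of all genes did. Slco2a1 had nearly the same mean in both genotypes, with a difference of 0.05 (SE 0.35), since the apoE KO arrays held both its lowest and its highest value. This fit does not depend on which diet the WT arrays had. A fit with diet as a block does, and by the titles it called 0 members and, over all genes, 8 higher and 4 lower in apoE KO. At an unadjusted p under 0.05 that fit had 2 of the 8 members, Ptger4 and Hpgd. Their limma adjusted p-values there were 0.66 and 0.72.

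The wider pathway was described by 81 further genes in groups by role. They were listed by role, but with earlier results of these data known. Of these, 75 had a probe set and 52 were tested. Over both genotypes limma called 0 of the 52 higher, beside 0.994% of all genes tested. It called 3 lower, Abcc4, Cbr3 and Mgll, beside 0.26% of all genes. The list median was 0.06 beside 0.02 over all genes. At an unadjusted p under 0.05 there were 13 of 52, beside 1799 of 13083 genes. For genotype limma called 0 of the 52 and 0% of all genes. At an unadjusted p under 0.05 it had 1 of the 52, beside 430 of 13083 genes.

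Abcc4 encodes MRP4, a pump that exports prostaglandins, cyclic nucleotides and other organic anions, and so works in the direction opposite to Slco2a1. Its log2 values were 6.18 and 4.40 on the WT arrays without and with prebiotics and 5.84 and 4.37 on the apoE KO arrays. Both prebiotic arrays lay far below both others, and the fitted difference was -1.62 (SE 0.14, limma adjusted p = 0.0011). Cbr3, a carbonyl reductase of the same family as the prostaglandin 9-ketoreductase Cbr1, had 8.01 and 6.43 on the WT arrays and 7.59 and 6.47 on the apoE KO arrays. Its fitted difference was -1.35 (SE 0.13, limma adjusted p = 0.0018). At least 2-fold lower were 0.139% of all genes in the apoE KO pair and 0.18% in the WT pair. Abcc4 and Cbr3 were among them in each pair. With the WT arrays exchanged their fitted values were 0.16 and 0.24 and neither was called, since opposite differences of nearly equal size then cancel.

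**Figure D3:**
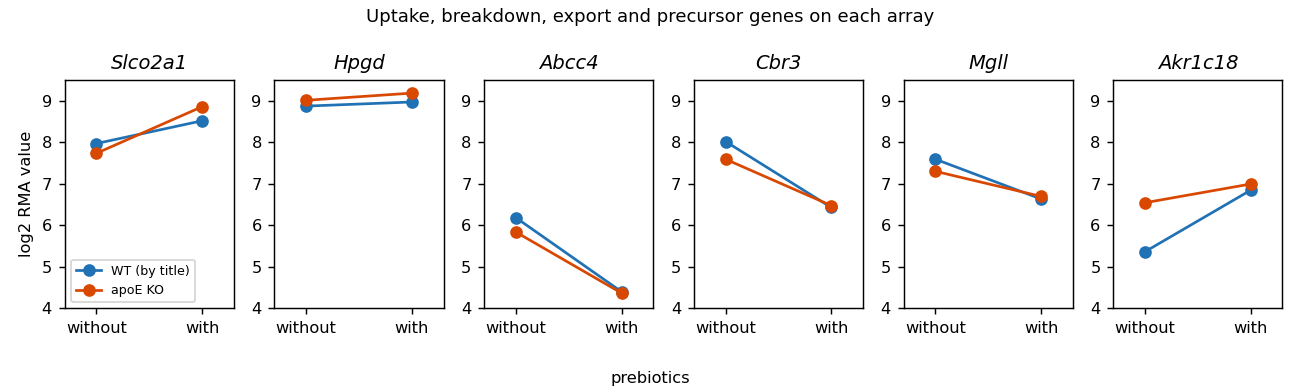
Log2 RMA value (vertical axis) of 6 genes on the arrays without and with prebiotics (horizontal axis), with a line for the WT pair by title and one for the apoE KO pair. Slco2a1 ends at 8.51 and 8.85 with prebiotics, while Abcc4 drops to 4.40 and 4.37 and Cbr3 to 6.43 and 6.47.

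Among the remaining genes of export and breakdown, Akr1c18, a hydroxysteroid dehydrogenase of the aldo-keto reductase family, was 2.79-fold higher in the WT pair (5.37 and 6.84) and 1.37-fold higher in the apoE KO pair (6.54 and 6.99). The WT array without prebiotics was the low one, and the fitted difference of 0.96 was not called (SE 0.21, limma adjusted p = 0.062). Cbr1 had 10.84 and 10.55 on the WT arrays and 10.66 and 10.45 on the apoE KO arrays, a difference of -0.26 (SE 0.06, limma adjusted p = 0.066). Of the 8 genes in this group, 0 were called higher and 2 lower, beside 0.994% and 0.26% of all genes tested.

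Upstream, 0 of 12 tested phospholipases were called. Pla2g4a, the cytosolic phospholipase that releases arachidonic acid, had 6.21 and 5.99 on the WT arrays and 6.10 and 5.85 on the apoE KO arrays, a difference of -0.23 (SE 0.12, limma adjusted p = 0.45). Pla2g12b had a difference of 0.27 (limma adjusted p = 0.43). Pla2g3, singled out after its values were seen, had a larger one of 0.55 (SE 0.14, limma adjusted p = 0.099). Genes that shape or store the precursor included Mgll, the lipase that frees arachidonic acid from the endocannabinoid 2-arachidonoylglycerol. Mgll had 7.59 and 6.63 on the WT arrays and 7.30 and 6.70 on the apoE KO arrays, and it fell by 0.78 on the log2 scale (SE 0.12, limma adjusted p = 0.019). This call was not kept without the expression filter (limma adjusted p = 0.05001), without the variance trend (limma adjusted p = 0.13) or with the WT arrays exchanged (0.18, limma adjusted p = 1). The desaturase Fads2 and the acyltransferase Lpcat3 had differences of 0.07 and -0.16, not called, and Mgll was 1 of 8 tested in that group.

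The terminal synthases Ptges2 and Prxl2b had differences of 0.19 and 0.21, and 0 of 3 tested synthases were called. Of the 4 tested prostanoid receptors 0 were called, and Tbxa2r and Ptger3, for thromboxane A2 and prostaglandin E2, lay between 2.91 and 3.29. In leukotriene synthesis 0 of 8 were called, with Mgst3 at -0.12 and the dipeptidase Dpep1, which trims leukotriene D4, at 0.38 (SE 0.09, limma adjusted p = 0.090). Mgst2, a microsomal glutathione transferase that can make leukotriene C4, had a difference of -0.48 (SE 0.10, limma adjusted p = 0.064) and was singled out after its values were seen. Leukotriene and lipoxin receptors had 8 measured genes, of which 2 were tested and 0 called, and Ltb4r1 and Gpr17 stayed between 2.70 and 3.03. Of 7 tested genes of epoxide and hydroperoxide metabolism 0 were called, with Cyp2c55 at 0.08 and Gpx1 at -0.11. Ephx2 in that group, singled out after its values were seen, had a larger difference of 0.56 (SE 0.16, limma adjusted p = 0.14).

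**Figure D4:**
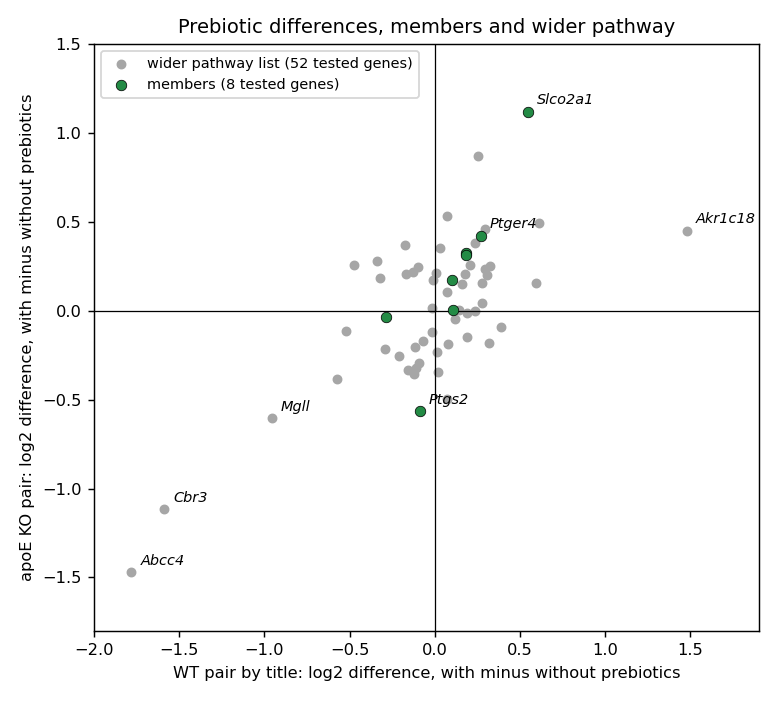
Log2 difference, with minus without prebiotics, in the WT pair by title (horizontal axis) and the apoE KO pair (vertical axis), for 8 tested members and 52 tested genes of the wider pathway. Most genes sit near the origin, Slco2a1 lies at 0.55 and 1.12, and Abcc4 and Cbr3 lie at the lower left with -1.78 and -1.59 in WT and -1.47 and -1.11 in apoE KO.

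Markers of tuft cells, mast cells, neutrophils and eosinophils, known to carry synthesis and lipoxygenase genes, were mostly near or below the array median. Of 9 measured macrophage markers 0 were below it on all arrays. Of 11 tuft cell markers 4 were below the median on all arrays, Pou2f3 among them, and Dclk1 and Trpm5 lay between 2.99 and 3.32. Of 10 mast cell markers 6 were below the median on all arrays. Kit lay between 4.71 and 5.04 and Cpa3 between 2.88 and 3.34. The mast cell protease Mcpt1 had 3.98 and 3.46 on the WT arrays and 4.36 and 3.43 on the apoE KO arrays, a difference of -0.73 that was not called (SE 0.15, limma adjusted p = 0.057). Neutrophil markers were below the median on all arrays in 8 of 10, with list means of 2.78 to 2.94, and eosinophil markers in 6 of 6. The neutrophil marker Ly6g stood at 4.45 on the WT array titled with prebiotics and at 2.94 to 3.03 on the others.

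Macrophage markers, of which 9 were measured, had a list mean of 3.74 and 4.15 on the WT arrays without and with prebiotics and of 4.33 and 4.33 on the apoE KO arrays. B cell markers had list means of 3.46 and 3.47 on the WT arrays and 3.42 and 2.79 on the apoE KO arrays. Fibroblast and matrix markers had 6.05 and 6.27 on the WT arrays and 6.46 and 6.56 on the apoE KO arrays, and smooth muscle markers 7.89, 7.57, 8.16 and 7.97 in the same order. In these lists limma called the collagen Col1a1 higher with prebiotics (1.19, SE 0.12, adjusted p = 0.0018) and 3 of 10 smooth muscle genes lower (Myh11, Myl9 and Synpo2, -0.41 to -0.78). Over all genes tested, 0.994% were called higher and 0.26% lower. T cell markers had 2.95, 3.08, 2.98 and 2.91, and goblet cell markers 9.63, 9.59, 9.60 and 9.41. The part of these cell types in the members' values was not tested.

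**Figure D5:**
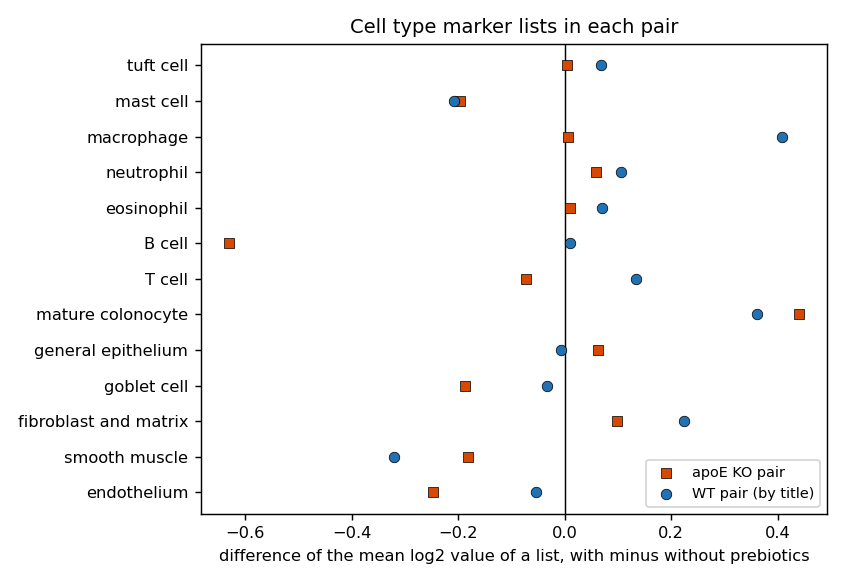
Difference of a marker list's mean log2 value (horizontal axis), with minus without prebiotics, for 13 cell type lists in the apoE KO pair (squares) and the WT pair by title (circles). Mature colonocyte markers lie to the right of 0 in both pairs, and the B cell list lies farthest to the left in the apoE KO pair, from 3.42 to 2.79.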

How the data were processed

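Each of the 4 groups was 1 array of pooled RNA (6 mice, 100 ng labelled). The deposited values are log2 RMA values made by the authors with Affymetrix Expression Console and RMA, per the submitters' processing notes, with no version or setting given. RMA corrects background, aligns array distributions and compresses differences near background. Base 2 was taken from RMA. Genome build: not given in the sources used here. Probe sets were named from the platform annotation: 23521 of 41345 had 1 symbol, 1814 several and 16010 none. Symbols were updated by identifier through RefSeq GRCm38.p6 (99.2% found, 0 changed). The brightest probe set stood for its gene.

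limma 3.58.1 (R 4.3.3, lmFit and eBayes with trend, two-sided) fitted genotype (2 residual degrees of freedom) and prebiotics with genotype as a term (1 residual degree of freedom, the interaction) to 13083 genes. Calls were at a Benjamini-Hochberg adjusted p under 0.05. Array pairs were compared without a test, at 2-fold. The p-values measure the spread between 4 pooled samples only, and the number of arrays limits precision. The fits were also run on simulated arrays with known differences, drawn with the same spread for every gene. That run held no trend of variance on level, so it cannot bear on calls that depend on the trend.

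Named were all members and, of the wider list, genes called, at 2-fold in a pair, or among the 2 highest means of a role group; of marker lists, called genes and up to 3 of the highest. Mgst2, Ephx2, Pla2g3, Pou2f3, Alox12e, Alox8 and Aloxe3 were named outside this rule, after their values were seen. The members and lists were chosen with earlier results of these data known. Alternatives were the WT exchange, 2 other filters, the mean over probe sets, cyclic loess, centring, no trend, a diet block, each array left out and a 1.5-fold limit.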

Additional observations from a re-analysis of the deposited data

Results flagged for a closer look

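Of the 52 tested genes of the wider pathway, 19 had prebiotic differences of opposite sign in the apoE KO and WT pairs, and 6 of these were among the genes named by the rule. Of all genes tested, 59.2% had the same sign in both pairs, so opposite signs were common over the array. With 1 array per group the difference between pairs was not tested. The prebiotic difference in apoE KO minus that in WT was 0.51 for the thromboxane receptor Tbxa2r, 0.345 for the prostaglandin receptor Ptger3, -0.34 for the leukotriene B4 receptor Ltb4r1, -0.24 for the peroxidase Gpx1, 0.18 for Cyp2c55 and -0.50 for the desaturase Fads2. Tbxa2r, Ptger3 and Ltb4r1 lay near background. With the brightest probe sets and RMA values as deposited, 0 of the 8 tested members had opposite signs. Alox5 did under cyclic loess (-0.024 in apoE KO, 0.087 in WT) and over the mean of probe sets, as did Alox5ap over that mean (0.15 and -0.017).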

How the results depend on the processing

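Slco2a1 stayed called under cyclic loess, centring, averaged probe sets and both other filters, none and the 75th percentile (fitted difference 0.80 to 0.83, limma adjusted p = 0.015 to 0.0499). It was lost without the variance trend, leaving 0 members called, and with the WT arrays exchanged (0.29, 0 members called). With that exchange limma called 0 genes higher and 0 lower over the array and 0 lower in the wider list. Signs then turned for Ptges (0.12), Alox5 (-0.051), Abcc4 (0.16), Cbr3 (0.24), Mgll (0.18), Akr1c18 (-0.51), Pla2g12b (-0.030), Prxl2b (-0.061), Tbxa2r (0.25), Cbr1 (0.039), Ltb4r1 (-0.17) and Fads2 (-0.25). In the exchanged WT pair Abcc4 was 1.78, Cbr3 1.59 and Akr1c18 -1.48, with 22 genes 2-fold higher and 41 lower, and in the wider list 2 higher and 1 lower. These changes follow from the exchange itself.

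Over all genes, limma called 130 higher and 34 lower for prebiotics, 68 and 17 with no filter (more genes tested) and 21 and 4 without the trend. For genotype it called 8 higher and 4 lower with diet as a block. Leaving out an array gave 0 to 5 genes higher and 0 to 2 lower for genotype, with the lone array assumed to vary like the other genotype's, and 0 members. Those fits gave Slco2a1 -0.51 to 0.61, Abcc4 -1.08 to 0.70, Cbr3 -0.98 to 0.60, Mgll -0.59 to 0.36, Ptgs2 -0.44 to 0.13, Ptges -0.16 to 0.12 and Alox5 -0.083 to 0.024. For prebiotics, leaving out an array leaves no residual degree of freedom and was not run. A 1.5-fold limit gave 321 genes higher and 141 lower in the apoE KO pair (wider list 1 higher) and 253 and 136 in the WT pair (wider list 3 higher). The cause of the changes without the trend, under the block and on leaving out arrays was not tested.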
